A study of Zea mays with 58 samples.

Results

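The N effect at 45 min was measured in roots of nitrogen-starved maize seedlings, as the difference between medium with nitrate and ammonium (N) and medium with potassium chloride (noN). It rests on 6 of the 58 libraries of a root time course, chosen by their labels: 3 N libraries and 3 noN libraries taken 45 min after the transfer. All seedlings were of the inbred line B73, 10 days old, had lost the endosperm by hand, and had spent 2 days in medium free of nitrogen. The N group received 20 mM KNO3 with 20 mM NH4NO3, a part of it labelled with a heavy nitrogen isotope. The noN group received 20 mM KCl, so chloride and the amount of salt were not equal between the arms either, and the N effect cannot be told apart from these. Each biological replicate combined 3 seedlings, and roots were used here.

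Roots take up nitrate and ammonium through membrane transporters. Nitrate is reduced to ammonium, and ammonium is built into glutamine and glutamate. In Arabidopsis and in crops, nitrate also acts as a signal: its supply to starved roots switches on transport and assimilation genes within minutes through transcription factors. The files identify genes by AGPv4 gene model IDs, and none of these could be paired with a name. The genes of these pathways and the markers of root tissue could therefore not be picked out, and the response is described through 4 IDs and through classes that the files define.

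Library totals at 45 min were 2677027, 2022608 and 2863210 counts in N and 2906427, 2878105 and 2848711 counts in noN. The arms stood apart in makeup. The mean log2 exon length, weighted by counts, was 10.974 to 10.989 in N libraries and 11.078 to 11.114 in noN libraries, without overlap (exact permutation test, two-sided p = 0.1, the smallest that 3 against 3 allows). The 50 most counted features took 9.22% to 11.1% of the counts in N and 6.68% to 7.66% in noN, again without overlap (exact permutation p = 0.1). In noN the length measure was 11.029 to 11.034 at time 0, 11.022 to 11.05 at 5 min and 11.011 to 11.045 at 10 min. It lay below time 0 at 15 min, at 11.01 to 11.024. Higher values followed, with 11.05 to 11.073 at 20 min and 11.066 to 11.107 at 30 min. In N it was 10.98 to 10.989 at 20 min and 10.986 to 10.992 at 30 min. At 60 min it was 10.983 to 10.991 in N and 10.969 to 10.982 in noN, below time 0 in both arms. Among the 3 noN libraries of 45 min, replicate 1 lay apart from the others on the second principal component of the 6 libraries, which held 14.4% of the variance. The first component, with 57.7%, separated the arms. The part of this makeup in the results below was not tested; most class results are set beside the same measure at 30 and 60 min.

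At 45 min, N and noN roots differed in 4458 of 18872 genes tested (23.6%), with 2529 higher in N (13.4%) and 1929 lower in N (10.2%; edgeR quasi-likelihood test over all 58 libraries, adjusted p of 0.05). Without the scaling of libraries by TMM (trimmed mean of M-values) the split was 1505 higher and 4802 lower, and the median log2 fold change of all genes stood at -0.3, against -0.03 with it. Most differences were small. Called genes reached a log2 fold change of at least 1 in 1186 cases for higher and 663 for lower, of at least 2 in 323 and 82, and of at least 4 in 37 and 10. Higher genes had a median log2 fold change of 0.94 (interquartile range 0.65 to 1.49) and lower genes one of -0.84 (interquartile range -1.14 to -0.65). Fitted values of 8 higher genes with no count in any noN library, and of 6 lower genes with no count in any N library, depend on the prior count and are no measure of size. In bulk roots, fewer cells of a type and less RNA per cell cannot be told apart.

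The counts fell when single libraries were left out. Without replicate 1 of noN 2776 genes were called, and without replicate 2 of N 2918. Each N library lay above each noN library in 2415 of the 2529 higher genes, or below it in 1755 of the 1929 lower genes. Over all tested genes such separation upwards was found in 3829 (20.3%) and downwards in 3490 (18.5%).

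**Figure D1:**
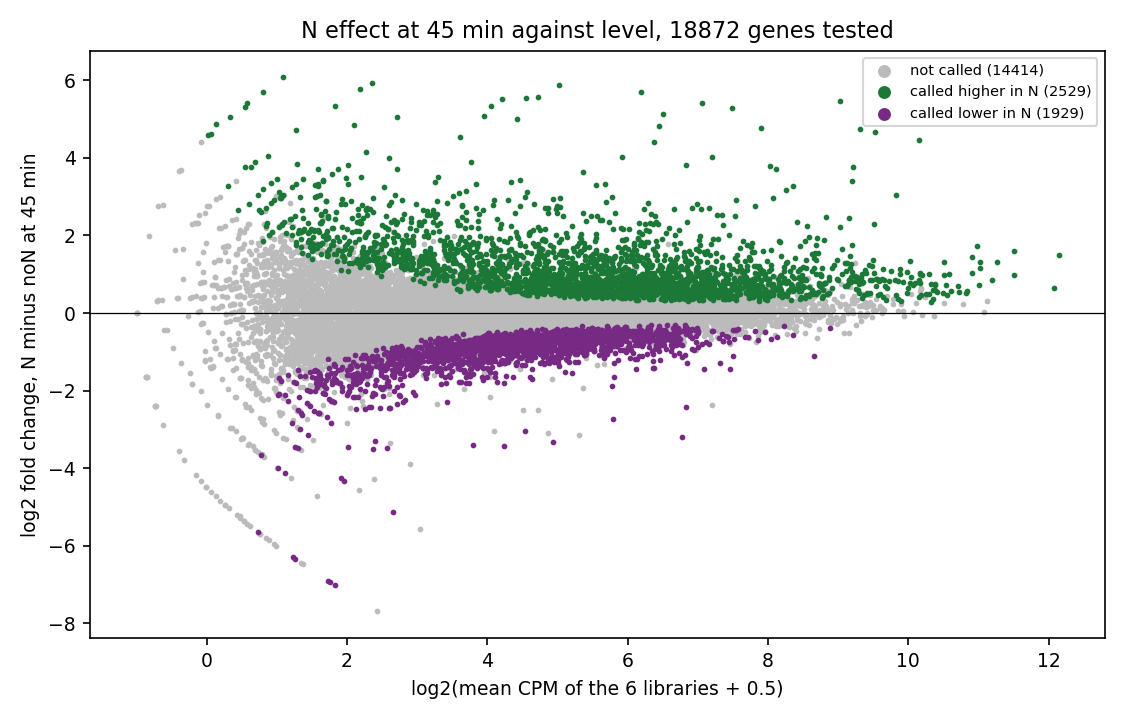
Log2 fold change of N minus noN at 45 min (vertical axis) against the log2 mean CPM of the 6 libraries plus 0.5 (horizontal axis), 1 point for each of 18872 genes. The 2529 genes called higher (green) reach beyond a log2 fold change of 4 at low and at high levels, while among the 1929 called lower (purple) most of the 82 with a log2 fold change of -2 or below lie towards the low end.

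Zm00001d025015 had the smallest p among genes that were higher in N by at least 1 on the log2 scale with separate libraries. It lies on chromosome 10 (AGPv4, 99806303 to 99812704, plus strand, exon length 4835 bases). The 3 N libraries had 452.9, 456.6 and 475.8 CPM (TMM-scaled counts relative to the library total), against 13.97, 13.22 and 23.63 CPM in the 3 noN libraries. The N libraries were close together and far above every noN library. The difference was 4.77 on a log2 scale (edgeR, adjusted p = 3.431e-22, SE 0.21), a 27.2-fold difference. At 30 min it averaged 261.4 ± 61.3 CPM in N and 11.89 ± 3.69 CPM in noN (SD, n = 3 each). At 60 min it averaged 690 ± 132 CPM in N and 20.23 ± 3.22 CPM in noN (SD, n = 3 each). Neither the N effect at 60 minus 45 min (0.33, SE 0.28, edgeR adjusted p = 0.4879) nor that at 45 minus 30 min (0.33, SE 0.29, edgeR adjusted p = 1) passed the test.

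Zm00001d032546 was the second such gene. It lies on chromosome 1 (230134398 to 230139442, minus strand, exon length 2050 bases), and its levels were 241.7, 223.2 and 219.6 CPM in N, against 38.03, 32.11 and 36.87 CPM in noN. All N libraries stood well above all noN libraries, by 2.68 on a log2 scale (edgeR, adjusted p = 2.603e-20, SE 0.13), or 6.39-fold. The difference at 15 min was -0.13 and was not called (edgeR, adjusted p = 0.4847, SE 0.13). By 20 min it was 0.97 (edgeR, adjusted p = 7.267e-07, SE 0.13), and by 30 min 1.64 (edgeR, adjusted p = 2.619e-13, SE 0.13). Later values were 2.68 at 60 min (edgeR, adjusted p = 2.615e-20) and 2.33 at 120 min (edgeR, adjusted p = 2.827e-20).

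Its N effect grew by 1.04 between 30 and 45 min (edgeR, adjusted p = 0.0165, SE 0.18), and it was the 1 gene of 18872 (0.0053%) called in that test. N roots averaged 228.1 ± 11.8 CPM at 45 min and 136.3 ± 26.7 CPM at 30 min (SD, n = 3 each), a step of 0.74 (edgeR, adjusted p = 0.006095, SE 0.12). Roots in noN averaged 35.67 ± 3.14 CPM at 45 min and 43.83 ± 2.98 CPM at 30 min (SD, n = 3 each), and this step of -0.29 (SE 0.13) was not called (edgeR, adjusted p = 0.9997). The call of the growth did not hold with fewer libraries. With 1 of the 12 libraries of both times left out, 0 genes were called in most cases. At 45 min these were replicate 1 or 2 of N and replicate 2 or 3 of noN. At 30 min they were replicate 1 or 3 of N and replicate 1 or 2 of noN. Such counts do not give the size of the growth.

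Zm00001d005736 had the smallest p among genes that were lower in N by at least 1 on the log2 scale with separate libraries. It lies on chromosome 2 (185226462 to 185236893, plus strand, exon length 7850 bases). N libraries had 15.03, 16.33 and 21.86 CPM, against 44.57, 50.06 and 44.11 CPM in noN libraries. Every N library was below every noN library (log2 fold change -1.37, SE 0.18, edgeR adjusted p = 2.339e-07). At 60 min it had 18.36 ± 4.56 CPM in N and 18.26 ± 3.93 CPM in noN (SD, n = 3 each; difference 0.01, SE 0.2, edgeR adjusted p = 0.9921). The noN level fell by 1.35 on the log2 scale from 45 to 60 min (edgeR, adjusted p = 7.811e-07, SE 0.18), while the N step of 0.03 (SE 0.2) was not called (edgeR, adjusted p = 0.9978). The difference between the N effects at 60 and 45 min was 1.38 (edgeR, adjusted p = 0.0006056, SE 0.27).

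Zm00001d053301, the second such gene, lies on chromosome 4 (225026663 to 225038512, minus strand, exon length 2709 bases). Its levels were 17.06, 16.87 and 21.14 CPM in N, against 40.11, 41.56 and 46 CPM in noN. The groups did not overlap (log2 fold change -1.2, SE 0.17, edgeR adjusted p = 5.451e-07). Roots in noN had it at 19.87 ± 1.11 CPM at 60 min (SD, n = 3), a fall by 1.1 from 45 min (edgeR, adjusted p = 5.119e-06, SE 0.17). N roots had it at 27.03 ± 4.24 CPM at 60 min (SD, n = 3), and the step of 0.55 (SE 0.17) was not called (edgeR, adjusted p = 0.4453). By 90 min it was higher in N, by 0.96 (edgeR, adjusted p = 4.153e-05, SE 0.16). Set against noN libraries of 60 min, the N level at 45 min differed by -0.02 (edgeR, adjusted p = 0.9765, SE 0.2) for Zm00001d005736 and by -0.11 (edgeR, adjusted p = 0.8681, SE 0.18) for Zm00001d053301. The same comparison gave 4.51 (edgeR, adjusted p = 4.071e-21, SE 0.21) for Zm00001d025015 and 2.21 (edgeR, adjusted p = 3.147e-17, SE 0.13) for Zm00001d032546. Reads of near-identical gene copies were not separated here for any of the 4. All 4 genes were chosen by their 45 min libraries. Steps and differences of the N effect that use those libraries are partly set by this choice and are not further tests.

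**Figure D2:**
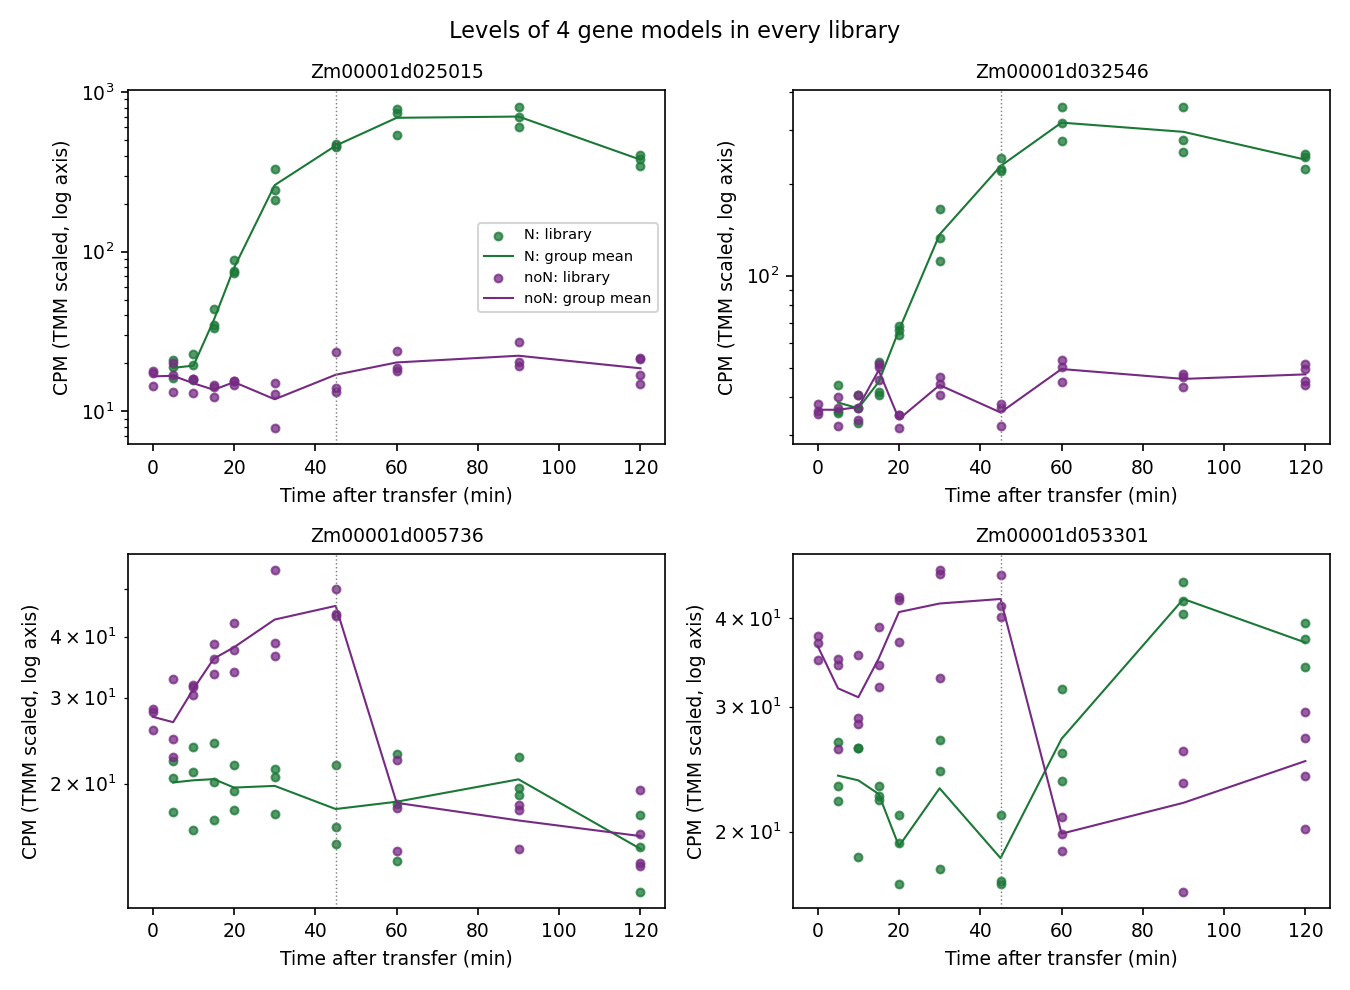
CPM (TMM scaled, log axis) of the 4 gene models in every library against time after transfer, N in green and noN in purple, with lines through the group means and a dotted line at 45 min. The upper genes part between the media by 20 min and stay apart, at 461.8 against 16.94 CPM and 228.1 against 35.67 CPM (N against noN) at 45 min. The lower genes stand at 17.74 against 46.25 CPM and 18.36 against 42.56 CPM at 45 min and are not called at 60 min.

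The genes called at 45 min were followed to the other times, whose libraries are separate. At 5 min 379 of the 2529 higher genes were already higher (15%; all genes: 2.63%) and 102 of the 1929 lower genes lower (5.29%; all genes: 0.97%), where 3.6% of all genes were called. At 10 min these were 818 (32.3%; all genes: 7.56%) and 303 (15.7%; all genes: 4.18%), with 11.7% of all genes called. At 15 min they were 1424 (56.3%; all genes: 14.7%) and 687 (35.6%; all genes: 12.5%), with 27.2% called. The shares were largest at 20 min, at 1744 (69%; all genes: 16.4%) and 1066 (55.3%; all genes: 13.8%), with 30.2% called. At 30 min they were 1573 (62.2%; all genes: 12.2%) and 796 (41.3%; all genes: 7.93%), with 20.1% called. Up to 30 min calls in the opposite direction were few, at most 26 for higher genes and 3 for lower genes.

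After 60 min, where 4.09% of all genes were called, the directions were mixed. At 90 min (17.1% of all genes called, 7.59% higher and 9.48% lower) 392 of the 2529 genes were higher again (15.5%) and 331 were lower (13.1%). Of the 1929 genes 124 were lower again (6.43%) and 128 higher (6.64%). At 120 min (13.9% of all genes called, 6.06% higher and 7.81% lower) the counts were 366 (14.5%) and 293 (11.6%) for the 2529 genes. For the 1929 genes they were 87 and 87 (4.51% each). The shares of the 1929 genes were below those over all genes at both times and in both directions. As a share of each later list, the genes higher at both times made up 27.4% of those higher at 90 min and 32% of those higher at 120 min.

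Against time 0, both arms had moved by 45 min. Of the 2529 higher genes 889 were higher and 50 lower in N than at time 0 (all genes: 7.5% and 5.36%, 12.9% together), and 40 were higher and 846 lower in noN than at time 0 (all genes: 5.37% and 8.22%, 13.6% together). Of the 1929 lower genes 7 were higher and 395 lower in N than at time 0, and 399 were higher and 6 lower in noN. These share libraries with the N effect at 45 min.

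The same contrast sorts the 4458 genes by what followed at 60 min, in libraries that 45 min does not share. At 60 min 471 genes were higher in N (2.5%) and 300 lower (1.59%). Of the 2529 genes higher at 45 min, 274 were higher at 60 min too, which is 10.8% of the 45 min list and 58.2% of the 60 min list. Of the 1929 lower genes 43 were lower at 60 min too, 2.23% of the 45 min list and 14.3% of the 60 min list. That 2.23% is near the 1.59% of all genes called lower at 60 min. A further 25 genes were higher at 45 and lower at 60 min (0.989% of the 2529, all genes: 1.59%). Another 23 were lower at 45 and higher at 60 min (1.19% of the 1929, all genes: 2.5%). Both shares lie below those over all genes. With single libraries left out, the number lower at both times was 13 (N, 60 min, replicate 2), 18 (noN, 60 min, replicate 3), 22 (N, 60 min, replicate 1), 25 (N, 45 min, replicate 1), and 26 (replicate 1 of noN, either time). The number higher at both times dropped to 182 without replicate 2 of N at 60 min.

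The 274 genes higher at both times stood above time 0 in N. From time 0 (libraries of noN roots), on the scale of log2(CPM + 1), their median stood at 1.27 in N at 45 min (interquartile range 0.66 to 2.16), against -0.14 in noN at 45 min (interquartile range -0.57 to 0.24). At times that did not choose them, 72 were higher in N at 10 min (all genes: 7.56%), 157 at 20 min (all genes: 16.4%) and 207 at 30 min (all genes: 12.2%). Later, 200 were higher at 90 min (all genes: 7.59%) and 176 at 120 min (all genes: 6.06%). In percent of the 274 these are 26.3%, 57.3%, 75.5%, 73% and 64.2%. Lower calls among them were at most 7, at 15 min. Their median log2 fold change was 1.66 at 45 min and 0.92 at 120 min, and 104 of them had reached a log2 fold change of at least 2 by 45 min.

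The 43 genes lower at both times stood below time 0 in N and above it in noN at 45 min. Their median from time 0 was -0.34 in N at 45 min (interquartile range -0.81 to -0.01), against 0.64 in noN at 45 min (interquartile range 0.36 to 1.09). At 20 min 22 were lower in N (51.2%, all genes: 13.8%), at 90 min 21 (48.8%, all genes: 9.48%) and at 120 min 20 (46.5%, all genes: 7.81%). At the early times the calls were few, with none of the 43 lower at 5 min (all genes: 0.97%) and 1 at 10 min (2.33%, all genes: 4.18%).

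The larger groups had no N effect called at 60 min: 2230 genes higher at 45 min and 1863 lower at 45 min. They were chosen for a call at 45 min and none at 60 min, so a difference at the first time and its absence at the second are set by that choice, and the values are a description. For the 2230 genes the median from time 0 was 0.39 in N and -0.44 in noN at 45 min, and 0.28 in N and 0.26 in noN at 60 min. For the 1863 genes it was -0.41 in N and 0.4 in noN at 45 min, and -0.26 in N and -0.27 in noN at 60 min. In noN roots 1424 of the 2230 rose from 45 to 60 min (over all genes 2306, 12.2%) and 998 of the 1863 fell (over all genes 1937, 10.3%). In N roots 1 of the 2230 was called over that step, as a fall, and 0 of the 1863 were called (over all genes 3 rose, 0.0159%, and 2 fell, 0.0106%, together 0.0265%; 1205 genes had an unadjusted p under 0.05 in edgeR, and DESeq2 called 13). At times that the choice did not use, 348 of the 2230 were higher and 1 lower at 5 min (all genes: 2.63% and 0.97%), and 1564 were higher and 1 lower at 20 min (all genes: 16.4% and 13.8%). Of the 1863, 93 were lower at 5 min, where none was higher, and 1026 were lower and 3 higher at 20 min. Comparisons with time 0 and the step from 45 to 60 min use the same libraries as the calls that chose the genes, so they describe the arms and are not further tests.

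**Figure D3:**
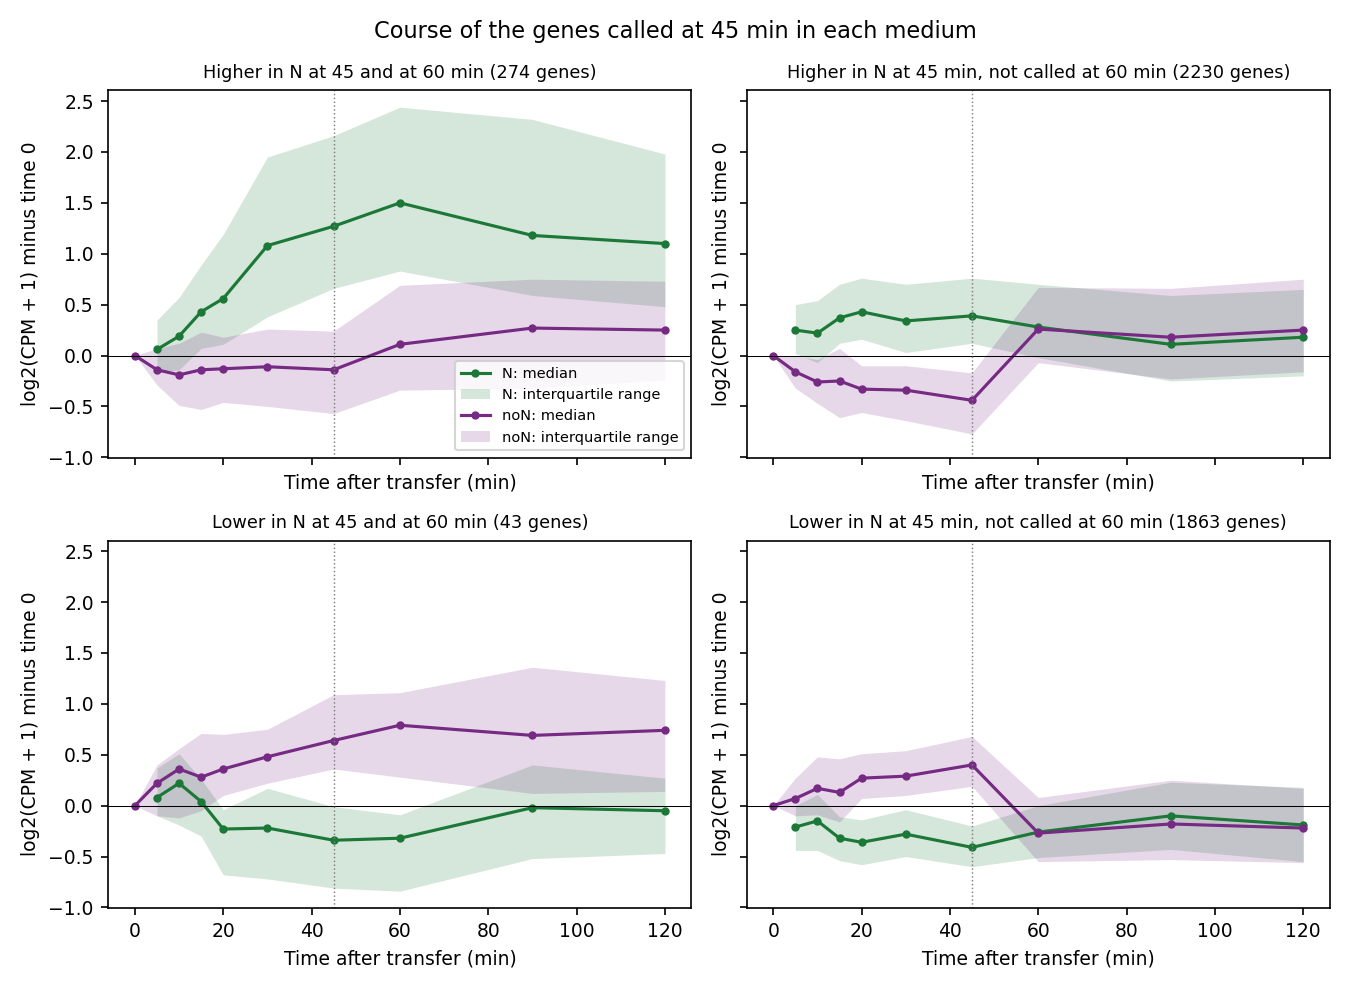
Median over genes (lines, with the interquartile range shaded) of log2(CPM + 1) minus its time 0 value, against time after transfer, N in green and noN in purple. The 274 genes higher at both times stand at 1.27 in N and -0.14 in noN at 45 min and stay apart to 120 min. The 2230 and the 1863 genes were chosen for a call at 45 min and none at 60 min, so that their lines part at 45 min and lie together at 60 min is set by the choice.

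Between 30 and 45 min few genes moved in either medium. In N roots 6 genes rose and 1 fell (0.0318% and 0.0053%; edgeR). All 6 that rose belong to the 2529 genes higher at 45 min, and 6 of the 7 were higher at 60 min. The 7 calls (0.0371%) became 0 when replicate 1 of N at 45 min, or replicate 1 or 3 of N at 30 min, was left out. They became 1 or 2 when replicate 2 or 3 of N at 45 min was left out, and 13 when replicate 2 of N at 30 min was. In noN roots edgeR called 0 genes (786 at an unadjusted p under 0.05), DESeq2 called 1 and limma on the quantile normalized values called 0. The N effect differed between 60 and 45 min in 2064 genes (10.9%): it was above its 45 min value in 816 (4.32%) and below it in 1248 (6.61%). Leaving out replicate 2 of N at 45 min gave 1240 such genes, and leaving out replicate 1 of noN at 45 min gave 1362.

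The median N effect at 45 min ran with exon number. For this, overlapping exons of all transcripts of a gene were merged and counted. Genes with 1 merged exon numbered 1725: 443 were higher in N (25.7%) and 27 lower (1.57%), with a median log2 fold change of 0.71, against 13.4%, 10.2% and -0.03 over all genes tested. Genes with 2 to 3 merged exons had a median of 0.1 (978 higher and 352 lower of 5282), and those with 4 to 7 one of -0.06 (791, 11.8%, and 651, 9.72%, of 6699), near the shares over all genes. With 8 or more merged exons, 317 were higher (6.14%) and 899 lower (17.4%) of 5166, and the median was -0.22. At 30 min the medians of the 4 classes, from 1 exon upwards, ran in the same order, at 0.26, 0.09, -0.05 and -0.17. At 60 min they were 0.15, -0.05, -0.01 and 0.01.

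The order by exon number also stood within classes of exon length. Tested genes were split into 5 length classes of like size. In the shortest class (72 to 1207 bases) the median log2 fold change at 45 min was 0.8 for 1 merged exon (1153 genes), 0.22 for 2 to 3 (1596 genes), 0.01 for 4 to 7 (941 genes) and -0.08 for 8 or more (91 genes). In the longest class (4120 to 22227 bases) these medians were -0.12, -0.14, -0.2 and -0.3. Within the shortest class the median exon length rose with exon number, at 582, 909, 1006 and 1120 bases, so length was not equal there. With the length trend of each library removed, genes with 1 merged exon kept a median of 0.41, with 326 higher and 37 lower. Against noN libraries of 60 min their median was 0.06.

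By library, genes with 1 merged exon took 4.243%, 4.876% and 4.527% of the tested counts in N, against 3.07%, 3.45% and 3.009% in noN at 45 min. Every N library was above every noN library (exact permutation test, two-sided p = 0.1, the smallest possible). At 60 min they took 4.52% ± 0.42 in N and 4.19% ± 0.23 in noN (SD, n = 3 each; exact permutation p = 0.3). Genes with 8 or more merged exons took 24.5% ± 0.07 in N and 28.1% ± 0.25 in noN at 45 min (SD, n = 3 each; exact permutation p = 0.1). At 60 min they took 24.7% ± 0.2 in N and 24.4% ± 0.23 in noN (SD, n = 3 each; exact permutation p = 0.2). From time 0 the median of the 1-exon genes was 0.32 in N and -0.36 in noN at 45 min.

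**Figure D4:**
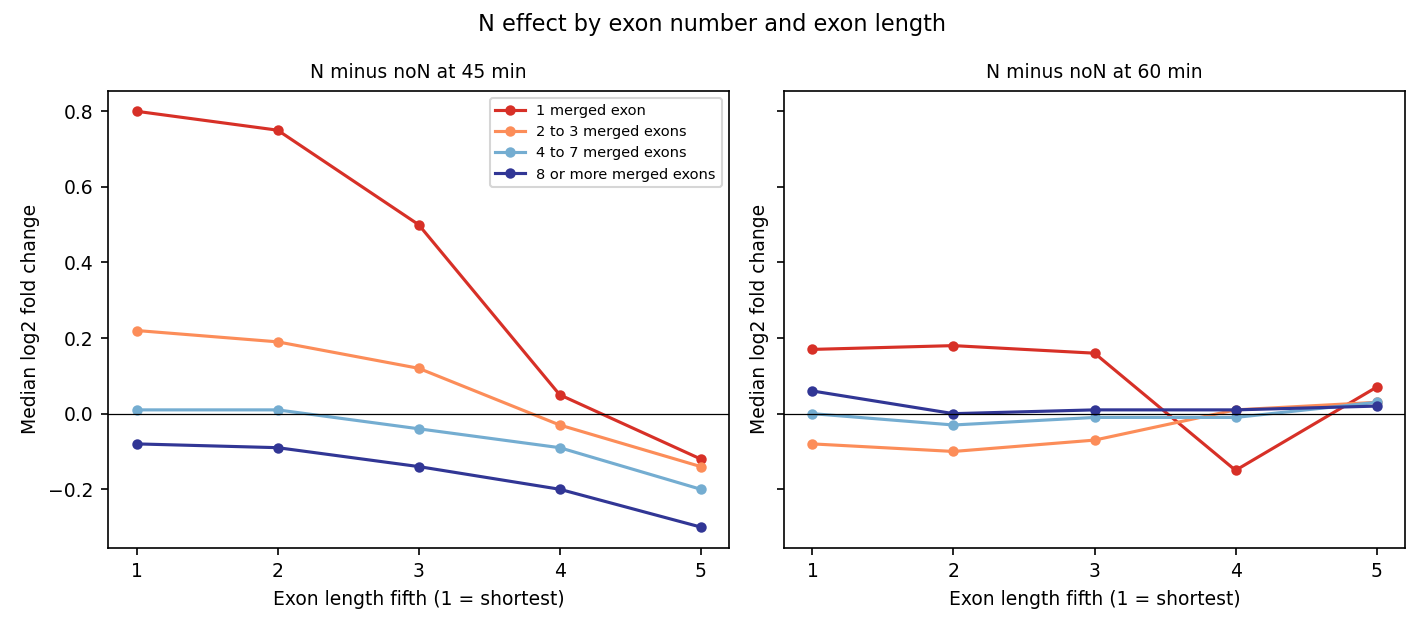
Median log2 fold change of N minus noN (vertical axis) by class of exon length from the shortest to the longest (horizontal axis), with 1 line for each class of merged exon number, at 45 min (left) and 60 min (right). At 45 min the lines run in order of exon number, from 0.8 for short genes of 1 exon to -0.3 for long genes of 8 or more, and at 60 min that order is absent.

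Exon length alone gave the same slope at 45 min. In the shortest length class 817 genes were higher (21.6%) and 128 lower (3.39%) in N, and in the longest length class 201 were higher (5.33%) and 791 lower (21%), against 13.4% and 10.2% over all genes. The slope was present at 30 min too, with 625 higher and 128 lower in the shortest length class and 223 and 589 in the longest (all genes: 12.2% and 7.93%). At 60 min 85 were higher and 65 lower in the shortest length class, and 84 and 29 in the longest (all genes: 2.5% and 1.59%). The median log2 fold changes at 60 min were 0 and 0.02. Lower calls in the longest length class numbered 498 without replicate 1 and 476 without replicate 2 of N. With the length trend removed, 2333 of all 18872 genes were higher and 1574 lower. The shortest length class (3781 genes) then had 480 higher and 347 lower genes, and the longest length class (3774 genes) 423 and 297. That step levels each library along exon length, so a smaller slope is set by the method. Of 5 classes by level at 45 min, the highest lay above a mean of 62.3 CPM, and in it 1088 were higher (28.8%) and 233 lower (6.17%). In the lowest level class, up to 5.69 CPM, 260 were higher and 214 lower. On chromosomes 1 to 10 between 22% and 25.4% of tested genes were called.

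Features whose ID begins with ENSRNA, the annotated non-coding RNAs, numbered 1861 in the table and 120 among the genes tested. At 45 min 23 were higher (19.2%) and 2 lower (1.67%) in N, with a median log2 fold change of 0.57, against 13.4%, 10.2% and -0.03 over all genes. The higher count was 13 without replicate 1 of noN, 15 without replicate 3 of noN and 15 without replicate 1 of N. With the length trend removed 6 were higher and 3 lower, and the median was -0.01. At 30 min 16 were called, all higher in N, and the median was 0.44. At 60 min 1 was called, lower in N (edgeR), and the median was -0.3. All counted ENSRNA features took 0.165% to 0.197% of the counts in N and 0.124% to 0.173% in noN, with overlap (exact permutation p = 0.3). Of 144 mitochondrial features 10 were tested. Of these 3 were called, all lower in N (30%, all genes: 10.2%), and all 10 fitted values were negative, from -1.74 to -0.07, with a median of -1.08. At 30 min 1 was higher and 3 were lower, with a median of -0.73. At 60 min 0 were called, and the median was -0.58. Mitochondrial features took 0.0306% to 0.0419% of the counts in N and 0.0394% to 0.0815% in noN, with overlap (exact permutation p = 0.3).

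Regulators of the authors' deposited network, 196 genes that the table pairs with 2294 targets, leaned towards N at 45 min. All 196 were tested: 85 were higher (43.4%) and 10 lower (5.1%) in N, against 13.4% and 10.2% over all genes. Their median log2 fold change was 0.51, against -0.03 over all genes, and 20 of those higher reached 2 or more on the log2 scale. Together they took 1.32%, 1.34% and 1.21% of the counts in N libraries, against 0.834%, 0.952% and 0.97% in noN libraries. Each N library was above each noN library (exact permutation p = 0.1, the smallest possible). With the length trend removed 72 were higher and 8 lower. The network table was deposited with these root libraries, so its genes are not taken as an independent choice.

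At 30 min 94 regulators were higher and 14 lower (all genes: 12.2% and 7.93%), with a median of 0.68. At 60 min 33 were higher and 18 lower (all genes: 2.5% and 1.59%), with a median of -0.2. The 31 regulators higher at both times are 36.5% of those higher at 45 min and 93.9% of those higher at 60 min. None was lower at both times, 4 went from higher at 45 min to lower at 60 min, and 1 from lower to higher. Against noN libraries of 60 min, N roots at 45 min had 31 regulators higher and 12 lower. Sorted by the summed weight of their edges in the authors' deposited table into 4 groups of 49, those with the most weight had 15 higher and 4 lower at 45 min (median 0.4) and those with the least had 28 higher and 1 lower (median 0.76).

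**Figure D5:**
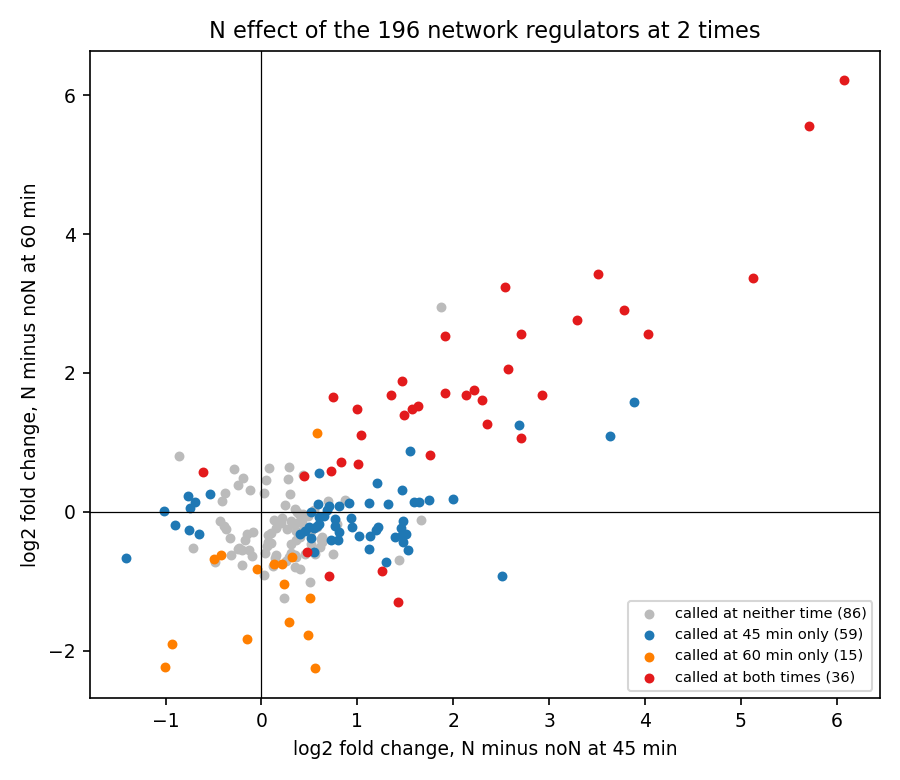
Log2 fold change of N minus noN at 60 min (vertical axis) against that at 45 min (horizontal axis) for the 196 network regulators, coloured by the times at which they were called. The 36 called at both times include 31 higher at both, 59 were called at 45 min only and 15 at 60 min only.

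Among the 2294 targets, which include all 196 regulators, 790 were higher (34.4%) and 314 lower (13.7%) in N at 45 min, with a median of 0.24. Lower targets numbered 176 without replicate 1 and 186 without replicate 2 of N. Genes outside the network had 1739 higher (10.5%) and 1615 lower (9.74%) of 16578. Of the 274 genes higher at both 45 and 60 min, 162 were targets (59.1%) and 31 regulators, where targets are 12.2% and regulators 1.04% of all genes tested. Of the 43 lower at both times 8 were targets (18.6%) and none was a regulator, which is near those shares. Genes called at 45 but not at 60 min also held more targets than all genes, 27.1% of the 2230 higher and 15.5% of the 1863 lower. The network was deposited with these root libraries, so its genes are not independent of the calls. All 4 named genes are targets and none is a regulator. Of the 10 regulators with the largest weight for each, 2 were higher in N at 45 min for Zm00001d025015 and 3 for Zm00001d032546, with none lower. For Zm00001d005736 these were 4 and 0, and for Zm00001d053301 they were 6 and 2. Over all 196 regulators 43.4% were higher and 5.1% lower. With 10 regulators for each gene, no link between a gene and its regulators is read from these counts.

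Taking noN libraries of 60 min in place of those of 45 min left few of the calls. N roots at 45 min then differed in 460 genes (2.44%), 274 higher (1.45%) and 186 lower (0.986%). Of the 2529 higher genes 225 remained higher, and of the 1929 lower genes 66 remained lower, while 3 were called the other way. Among genes with larger differences, 187 of the 1186 that differed by 1 or more on the log2 scale were still higher, and 43 of the 663 were still lower. This comparison joins different times, so passing time and the medium cannot be told apart in it.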

How the data were processed

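Roots were profiled by 3' mRNA sequencing with unique molecular identifiers. Per the file headers, the deposited counts are whole-number counts per gene from deduplicated reads, made with featureCounts 2.0.1 in its sense-strand setting and the AGPv4 gene annotation, release 37. Per the submitters' processing notes, UMI-tools 1.1.1, fastp 0.21.0 and STAR 2.7.6a were also used. The authors' quantile normalized values, whole numbers here called a score, served for an alternative test, and the authors' network weight is a score; how it was computed is not stated in those notes.

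Of 46335 features, 18872 passed edgeR's filterByExpr (19 groups, count of 10, total of 15), with 99.7% of all counts. TMM scaled the libraries. One edgeR 4.0.16 quasi-likelihood model (R 4.3.3) with 1 mean per group, 39 residual degrees of freedom and no block gave all main results. Standard errors (SE) are the log2 fold change over the square root of F. P-values were adjusted by Benjamini-Hochberg over all genes tested, and a gene was called at 0.05. Library totals over the series were 1978039 to 3790442. The fit was also run on simulated counts. These held no difference in exon length makeup between the arms, so that run does not bear on it.

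Alternatives used DESeq2 1.42.0, limma 3.58.1, other scalings and filters, removal of each library's length trend, other comparison arms and leaving out single libraries. Members, classes and tests were chosen with earlier results of these data known. The gene lists by symbol or product have no members, since 0 of 44146 gene model IDs matched the reference table, which is of another assembly. The rule for named genes then gave the 2 higher and the 2 lower IDs with the smallest p that differed by 1 or more on the log2 scale with no overlap between N and noN libraries. Exon and level classes and the sorting by 60 min were added after seeing the data.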

Additional observations from a re-analysis of the deposited data

Results flagged for a closer look

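A change of the difference between media was called in many genes from 45 to 60 min and in 1 gene from 30 to 45 min. The N effect at 60 min differed from that at 45 min in 2064 genes, by the test of the difference itself (edgeR, adjusted p of 0.05). Between 45 and 30 min it differed in 1 gene. That gene was Zm00001d032546, with a growth of 1.04 in log2 units (edgeR, adjusted p = 0.0165, SE 0.18). Between 60 and 45 min the difference was 1.38 for Zm00001d005736 (edgeR, adjusted p = 0.0006056, SE 0.27) and 1.65 for Zm00001d053301 (edgeR, adjusted p = 1.522e-05, SE 0.24). These named genes were chosen by their 45 min libraries, which the differences reuse, so their values are partly set by that choice. Groups at 45 min hold 3 libraries each, so no library was screened as an outlier.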

How the results depend on the processing

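The 4 named genes kept the sign of their difference under every alternative, but the balance of calls did not: 56.7% of calls were higher in N, against 23.9% without scaling and 49.1% and 48.1% with limma at pseudocounts of 1 and 10. Single genes were called the other way against noN libraries of 60 min (3) and with limma (2 at each pseudocount). Against noN libraries of 60 min the calls fell to 460 (274 higher, 186 lower, 319 of them by 1 or more on the log2 scale). That left 31 regulators, 165 targets, 0 ncRNA genes and 58 genes of the shortest length class higher, with 57 targets and 17 genes of the longest length class lower; Zm00001d005736 (-0.02) and Zm00001d053301 (-0.11) were not called. Without scaling, calls were 1505 higher and 4802 lower, with 15 ncRNA genes higher, and 660 targets, 1715 genes of the longest length class and 89 genes at both 45 and 60 min lower. With the length trend removed, calls were 2333 higher and 1574 lower. Among them 480 genes of the shortest length class and 6 ncRNA genes were higher, and 297 of the longest length class lower. With limma on the quantile normalized values the split was 2200 higher and 2284 lower at a pseudocount of 1, with 66 genes lower at both times, and at 10 it called 835 differing by 1 or more (main 1849), 475 lower targets and 13 genes in the N step from 30 to 45 min (4 at 1; main 7). DESeq2 called 21 in that step, 13 in the N step from 45 to 60 min (main 5), 1 in the noN step from 30 to 45 min and 2 for the change of the N effect between 30 and 45 min. With no filter these were 12 in the N step, 1 in the noN step and 0 for the change. The cause was not tested for any of these.

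With 1 library left out, the calls ranged from 2776 to 4011, higher from 1669 to 2353, lower from 1048 to 1709, and those differing by 1 or more from 1270 to 1981. Higher calls ranged from 62 to 83 for regulators, 629 to 802 for targets, 13 to 19 for ncRNA genes and 575 to 748 in the shortest length class. Lower calls ranged from 176 to 333 for targets and 476 to 632 in the longest length class. Genes higher at both times ranged from 182 to 277 and lower from 13 to 37. The change of the N effect ranged from 0 to 1 (45 minus 30 min) and 1240 to 2283 (60 minus 45 min). Steps ranged from 0 to 13 (N, 30 to 45 min), 0 to 1 (noN, 30 to 45 min), 0 to 10 (N, 45 to 60 min) and 2891 to 4268 (noN, 45 to 60 min).

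After the mean of each arm was taken off, libraries of the same replicate number correlated at 0.079, 0.181 and 0.007. Other pairs ran from -0.17 to 0.087, and replicate 3 of N correlated best with replicate 1 of noN (0.087). The labels give no pairing, and with 3 libraries an arm these values cannot decide whether the numbers pair the samples. A replicate block gave 2652 higher and 1995 lower genes. The depth of the libraries, 2022608 counts in the smallest at 45 min, limits calls among low genes.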

Other observations

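Among the 323 genes higher in N by a log2 fold change of at least 2, 38 lay beside another such gene among the tested genes along a chromosome, in 21 of 18802 adjacent pairs. The longest run held 4 genes. No test was made of this. The 25 genes higher at 45 min and lower at 60 min were mostly network targets (23, or 92%), and of the 23 genes with the opposite turn 17 were (73.9%). Targets were 12.2% of all genes tested, but 48.1% of targets were called at 45 min, against 23.6% of all genes. The network was deposited with these root libraries, so its genes are not an independent choice. The 25 and the 23 genes were chosen on the libraries of 45 and 60 min, so their steps between these times say nothing further. At 120 min, which did not choose them, 17 of the 25 were lower (all genes: 7.81%) and 10 of the 23 higher in N (all genes: 6.06%).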
